A study of Rattus norvegicus with 12 samples.

Results

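The regulators of mitochondrial biogenesis described here were 8 named genes, Ppargc1a, Ppargc1b, Esrra, Nrf1, Tfam, Tfb2m, Sirt1 and Sirt3. They were found on the arrays through the RefSeq accession of each probe. A total of 8 probes stood for 7 of the genes, 2 of them for Nrf1 and 1 for each other gene, and all 8 were well above background on all 12 arrays. They were 8 of 21239 detected probes and of 30367 rat probes in all, and their 7 genes were 7 of 11146 detected genes with a symbol. No probe was matched to Sirt1, which was not analysed here. The lungs came from male Sprague–Dawley rats aged 8 to 12 weeks, 3 rats in each group and 1 array for each rat. The control group received neither cigarette smoke nor lipopolysaccharide. The CS + LPS group was exposed to cigarette smoke (CS) and had lipopolysaccharide (LPS), a component of bacterial cell walls, instilled into the trachea, as a model of chronic obstructive pulmonary disease. The CS + LPS + NaHS group had the same exposure and received sodium hydrosulfide, a donor of hydrogen sulfide, before smoke or LPS. The CS + LPS + PPG group had the same exposure and received propargylglycine before smoke or LPS. Propargylglycine is an inhibitor of the hydrogen sulfide-producing enzyme cystathionine gamma-lyase. No group received NaHS or PPG without the exposure. RNA came from the left upper lobe with all of its cell types, so fewer cells of a type and less RNA per cell cannot be told apart.

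Mitochondrial biogenesis is the making of new mitochondria, which requires genes in the nucleus and in mitochondrial DNA to be read together. PGC-1alpha (Ppargc1a) and PGC-1beta (Ppargc1b) are coactivators that bind no DNA themselves and act through partners such as the estrogen-related receptor ERRalpha (Esrra) and nuclear respiratory factor 1 (Nrf1, a different protein from the antioxidant factor Nfe2l2). These partners bind promoters of respiratory chain genes and of Tfam and Tfb2m, whose products enter mitochondria and start transcription of mitochondrial DNA. SIRT1 and SIRT3 are NAD-dependent deacetylases, SIRT1 acting on PGC-1alpha itself and SIRT3 on enzymes inside mitochondria. PGC-1alpha is best known from brown fat, heart and muscle, where its gene responds to cold, exercise and fasting in part through cAMP signalling.

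The promoters of 3 of the genes are shown because each held a short motif known from this pathway. Sequences were taken from RefSeq on GRCr8, from 250 bases before to 50 bases after the listed start site, and a motif searched on both strands is in capitals. The search used a core NRF1 motif (GCATGCGC), a longer NRF1 form (GCGCNTGCGC, where N is any base) and an estrogen-related receptor motif (AAGGTCA). It also used a cAMP response element (TGACGTCA) and an ETS motif (CCGGAAG). The core NRF1 motif was added after the longer form had matched none of the 8 promoters. The Ppargc1a promoter (chr14:63634058-63634357, plus strand) held the cAMP response element at position -181 from the start site, the Tfam promoter (chr20:17355123-17355422, plus strand) held the ETS motif at -56, and the Tfb2m promoter (chr13:93828545-93828844, minus strand) held the NRF1 core at -45.
Ppargc1a: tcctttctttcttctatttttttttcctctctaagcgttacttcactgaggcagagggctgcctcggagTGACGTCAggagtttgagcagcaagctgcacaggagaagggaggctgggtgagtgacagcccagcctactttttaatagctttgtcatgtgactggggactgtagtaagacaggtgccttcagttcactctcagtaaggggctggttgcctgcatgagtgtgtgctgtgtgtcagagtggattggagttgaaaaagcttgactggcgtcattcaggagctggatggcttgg
Tfam: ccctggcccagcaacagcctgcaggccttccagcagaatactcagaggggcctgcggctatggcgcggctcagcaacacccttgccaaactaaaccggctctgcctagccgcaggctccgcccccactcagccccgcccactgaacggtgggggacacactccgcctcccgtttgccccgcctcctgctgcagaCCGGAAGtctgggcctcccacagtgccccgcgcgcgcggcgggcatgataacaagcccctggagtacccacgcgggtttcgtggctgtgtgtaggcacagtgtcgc
Tfb2m: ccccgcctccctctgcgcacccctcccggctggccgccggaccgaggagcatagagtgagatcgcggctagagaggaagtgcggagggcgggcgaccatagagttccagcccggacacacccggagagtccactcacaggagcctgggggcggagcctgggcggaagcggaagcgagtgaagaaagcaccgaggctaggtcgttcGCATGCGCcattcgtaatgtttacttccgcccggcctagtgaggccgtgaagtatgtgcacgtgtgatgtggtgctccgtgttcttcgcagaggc
Of all 33469 promoters of this length, 1.83% held the cAMP response element, 8.75% the ETS motif, 2.47% the NRF1 core, 4.25% the longer NRF1 form and 4.61% the receptor motif. The Esrra promoter also held the NRF1 core, at -115, and the promoters of Ppargc1b, Nrf1, Sirt1 and Sirt3 held none of these letters. A match of letters does not show that a factor binds there.

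Values are given as log2 signal, the log2 of the processed signal after each array was scaled to its 75th percentile, so that 1 unit is a doubling. Levels of different probes are not comparable. Groups were compared with limma over all 12 arrays, and p-values were adjusted by the Benjamini-Hochberg method over the 21239 probes. A probe is called below where its adjusted p was under 0.05. The study's own rule, a fold change of at least 2 with an unadjusted p under 0.05, is given beside it. The arrays lay on 2 slides, read in 2 scans. All CS + LPS arrays and control rat 3 were on slide 2, and the other 8 arrays were on slide 1, so that CS + LPS differed from both treated groups in slide as well as in treatment. Control rat 3 was the only link between the slides. Its array correlated with the others at r of 0.936 to 0.957, whereas all other pairs reached 0.975 or more. For several results that rest on control rat 3, values without it are given as well.

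Ppargc1a had its lowest mean in CS + LPS and its highest with NaHS. Its log2 signal was 6.65, 6.42 and 7.14 in the control rats, 6.42, 5.28 and 5.87 in the CS + LPS rats, 6.94, 7.16 and 7.14 in the NaHS rats, and 6.88, 5.95 and 6.56 in the PPG rats. All 3 NaHS rats lay above all 3 CS + LPS rats and above all 3 PPG rats. CS + LPS and control did not overlap, but the highest CS + LPS rat and the lowest control rat were both at 6.42. The NaHS rats were close together (7.08 ± 0.12, mean ± SD, n = 3), and the CS + LPS rats were spread more widely (5.86 ± 0.57).

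Compared with CS + LPS, Ppargc1a was 2.33-fold higher with NaHS (log2 difference 1.22, SE 0.31, 95% confidence interval 0.54 to 1.91, unadjusted p = 0.00243), and the adjusted p of 0.123 did not pass. It was the only member that met the study's rule in any comparison. The study had singled out this gene on these same arrays, so the difference is a description and not independent evidence. Compared with control, Ppargc1a was 1.85-fold lower in CS + LPS (log2 difference -0.89, SE 0.31, adjusted p = 0.125). The NaHS group was 1.26-fold above control (log2 difference 0.34, interval -0.35 to 1.02, adjusted p = 0.577), so that a doubling relative to control lies inside the interval. The log2 difference of NaHS over PPG was 0.61 (interval -0.07 to 1.30, adjusted p = 0.587), and that of PPG over CS + LPS was also 0.61 (interval -0.08 to 1.29, adjusted p = 0.526). The PPG and CS + LPS rats overlapped.

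The size of these differences moved with single rats and with the slide. Without CS + LPS rat 2, the lowest array, the NaHS difference from CS + LPS was 0.93, and without CS + LPS rat 1 it was 1.51. For PPG over CS + LPS the same rats gave 0.32 and 0.89, and the slide block gave 1.21 (adjusted p = 0.126). The difference of NaHS from PPG was 0.36 without PPG rat 2 and 0.82 without PPG rat 1, and that of PPG from control was -0.02 and -0.49. NaHS over control was 0.18 without control rat 2 and 0.54 without control rat 3. Taking slide as a block, the difference between NaHS and CS + LPS was 1.83 (adjusted p = 0.034) and that between CS + LPS and control was -1.29 (adjusted p = 0.0314), both past the threshold. Of all 21239 probes, that block called 4852 in NaHS over CS + LPS, 8721 in CS + LPS over control and 4746 in PPG over CS + LPS. The block value for CS + LPS and control compares CS + LPS with control rat 3 alone, the single control on slide 2. The block value for NaHS and CS + LPS also uses the 2 other controls, with control rat 3 as the link between the slides. Within slide 2 the difference of CS + LPS from that rat was -1.29 (adjusted p = 0.101), and without it CS + LPS was 0.68 below the other controls on the log2 scale (difference -0.68, adjusted p = 0.279). Within slide 1 the log2 difference from the 2 other controls was 0.54 for NaHS (adjusted p = 0.325) and -0.08 for PPG (adjusted p = 0.866). No slide held both CS + LPS and a treated group. The authors' list places the Ppargc1a probe at chr14:64365667-64365726, the array headers name build rn4, and the part of the transcript that it covers was not analysed here.

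**Figure D1:**
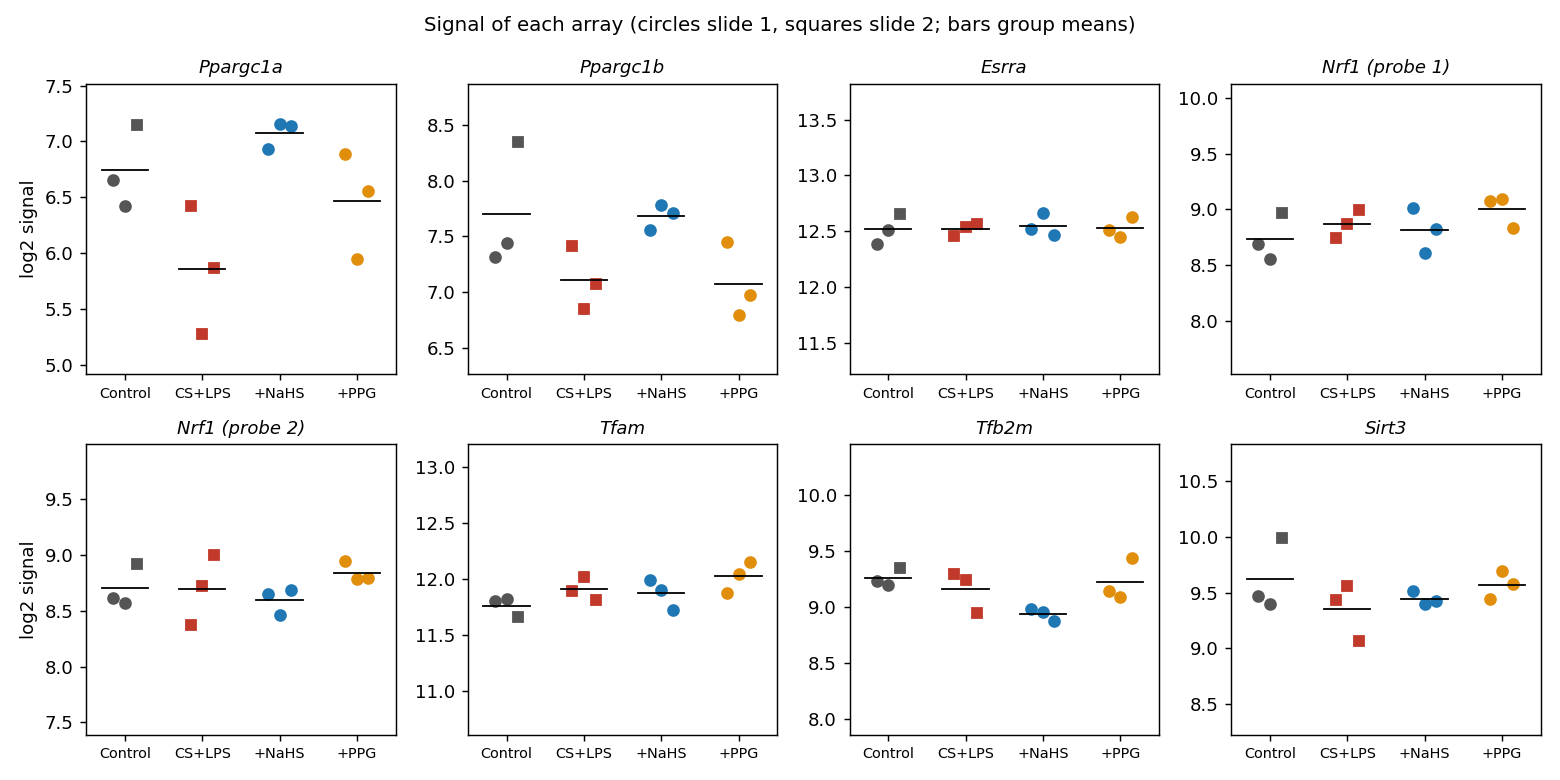
Log2 signal (vertical axis, same span of 2.6 units in each panel) of the 8 probes on each array, by group on the horizontal axis. Points are rats, circles on slide 1 and squares on slide 2, and bars are group means (n = 3). The 3 NaHS points of Ppargc1a sit between 6.94 and 7.16, above all CS + LPS points, while Esrra lies between 12.38 and 12.66 in all groups.

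Ppargc1b, the second coactivator of the family, was lower in CS + LPS and PPG than in control and NaHS, and no difference passed the adjusted test. Its log2 signal was 7.31, 7.44 and 8.34 in control, 7.41, 6.85 and 7.07 in CS + LPS, 7.56, 7.78 and 7.71 with NaHS, and 7.45, 6.79 and 6.98 with PPG. The NaHS rats lay above all CS + LPS and all PPG rats, and control rat 3 was far above every other rat. The log2 difference of NaHS from CS + LPS was 0.57 (SE 0.27, adjusted p = 0.533) and that from PPG was 0.61 (SE 0.27, adjusted p = 0.561). CS + LPS differed from control by -0.59 (adjusted p = 0.206) and PPG from control by -0.62 (adjusted p = 0.156). Both shrank without control rat 3, to -0.26 and -0.30. In the fit with slide as a block, Ppargc1b was called lower in CS + LPS than in control (log2 difference -1.23, adjusted p = 0.00575) and higher with NaHS than in CS + LPS (1.54, adjusted p = 0.013), again resting on that rat. Within slide 2, where that rat was the only control, the first of these was also -1.23.

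The 2 coactivators varied together from array to array. Over the 12 arrays Pearson's r of Ppargc1a with Ppargc1b was 0.815, and it was 0.839 for deviations from the group means, so that the likeness was also present between rats of 1 group. In CS + LPS, rat 1 was the highest and rat 2 the lowest for both genes, and in PPG the same held for rats 1 and 2. These points share an array and its scaling, and r is a description.

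**Figure D2:**
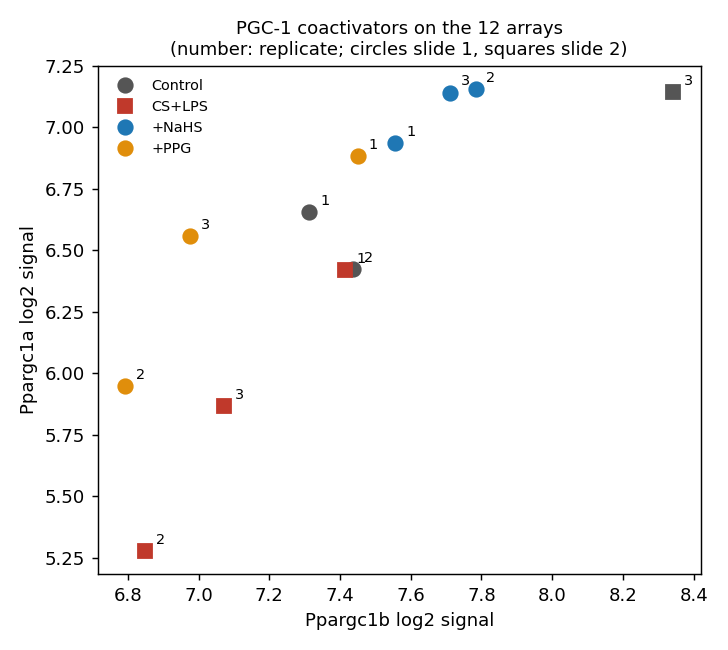
Ppargc1a against Ppargc1b, both as log2 signal, for the 12 rats, coloured by group and numbered by replicate, with circles for slide 1 and squares for slide 2. The points run from CS + LPS rat 2 at the lower left to control rat 3 at the upper right, with r = 0.815.

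The partners that carry the coactivators to DNA differed little between the groups. Esrra lay between 12.38 and 12.66 on all 12 arrays, and its group means were 12.52 in control, 12.52 in CS + LPS, 12.55 with NaHS and 12.53 with PPG. Its 95% intervals stayed between -0.26 and 0.29 in all 6 comparisons, or from 0.837-fold to 1.22-fold. The first Nrf1 probe read 8.69, 8.56 and 8.97 in control, 8.74, 8.87 and 8.996 in CS + LPS, 9.01, 8.61 and 8.83 with NaHS, and 9.08, 9.09 and 8.84 with PPG. All groups overlapped, and the widest difference was PPG over control at 0.26 (interval -0.08 to 0.61, adjusted p = 0.275). The second Nrf1 probe read 8.62, 8.57 and 8.92 in control, 8.38, 8.72 and 9.001 in CS + LPS, 8.65, 8.46 and 8.69 with NaHS, and 8.94, 8.78 and 8.80 with PPG. Its NaHS and PPG values did not overlap (log2 difference -0.24, adjusted p = 0.686). The probes gave opposite signs for NaHS over control, 0.08 and -0.10, both within their error.

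The mitochondrial transcription factors had other orders of group means than the coactivators. Tfam, which packages mitochondrial DNA and opens its promoters, read 11.80, 11.82 and 11.66 in control, 11.90, 12.02 and 11.82 in CS + LPS, 11.99, 11.90 and 11.73 with NaHS, and 11.88, 12.04 and 12.15 with PPG. Its highest mean was with PPG, where all 3 rats lay above all controls (log2 difference 0.26, interval -0.01 to 0.54, adjusted p = 0.189). NaHS differed from CS + LPS by -0.04 (interval -0.32 to 0.24, adjusted p = 0.984). Over the 12 arrays Tfam ran against Ppargc1b (r = -0.728) and, less closely, against Ppargc1a (r = -0.438). Control rat 3 had the lowest Tfam and the highest Ppargc1b of all rats, and these r were not calculated without it.

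Tfb2m, which helps the mitochondrial RNA polymerase to open a promoter, was lowest with NaHS. It read 9.23, 9.19 and 9.35 in control, 9.30, 9.24 and 8.94 in CS + LPS, 8.98, 8.96 and 8.87 with NaHS, and 9.14, 9.09 and 9.44 with PPG. The NaHS rats lay below all control and all PPG rats. The log2 difference of NaHS from control was -0.32 (SE 0.14, unadjusted p = 0.0414), with an adjusted p of 0.269, and within slide 1 it was -0.27 (adjusted p = 0.324). NaHS differed from PPG by -0.29 (adjusted p = 0.582) and from CS + LPS by -0.22 (adjusted p = 0.711). In NaHS over CS + LPS the direction of Tfb2m was thus opposite to that of Ppargc1a, and neither passed the adjusted test.

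Sirt3, the mitochondrial deacetylase, read 9.47, 9.40 and 9.99 in control, 9.44, 9.56 and 9.07 in CS + LPS, 9.52, 9.40 and 9.42 with NaHS, and 9.45, 9.70 and 9.57 with PPG. All groups overlapped. Its log2 difference was -0.26 for CS + LPS over control (adjusted p = 0.356) and 0.09 for NaHS over CS + LPS (interval -0.30 to 0.49, adjusted p = 0.969). Without control rat 3, the highest array, the first difference was -0.08. With slide as a block, Sirt3 was called lower in CS + LPS than in control (-0.63, adjusted p = 0.0244) and higher with PPG than in CS + LPS (0.77, adjusted p = 0.0474), both through that rat.

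By limma 0 of the 8 member probes were called in any of the 6 comparisons, and 0 were called by the methods' t-test after adjustment. Over all 21239 probes, limma called 2.1% in CS + LPS over control, 0.122% in NaHS over control, 5.2% in PPG over control, 0.739% in NaHS over CS + LPS, 0.584% in PPG over CS + LPS and 0% in NaHS over PPG. With shares this small, a count of 0 among 8 probes is near the background. In NaHS over PPG, where limma called 0 probes, 1883 had an unadjusted p under 0.05 and the methods' t-test also called 0. An unadjusted p under 0.05 was found for 1 of the 8 member probes in each comparison other than PPG over CS + LPS, where there were 0. Of all probes, 25.4% had one in CS + LPS over control, 17.6% in NaHS over control, 29.6% in PPG over control, 10.1% in NaHS over CS + LPS, 10.8% in PPG over CS + LPS and 8.87% in NaHS over PPG, so that 1 of 8 is near or below the background. The member probes were those of Ppargc1a in CS + LPS over control and in NaHS over CS + LPS, Tfb2m in NaHS over control, and Ppargc1b in PPG over control and in NaHS over PPG. The median log2 difference over the 8 probes was -0.0494 in CS + LPS over control, against -0.062 over all probes, and -0.00535 in NaHS over CS + LPS, against 0.032. The study's rule was met by 1 of 8 member probes in NaHS over CS + LPS, against 1.94% of all probes, and by 0 elsewhere. Its background was 4.6% in CS + LPS over control, 2.58% in NaHS over control, 4.3% in PPG over control, 2.14% in PPG over CS + LPS and 0.499% in NaHS over PPG.

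**Figure D3:**
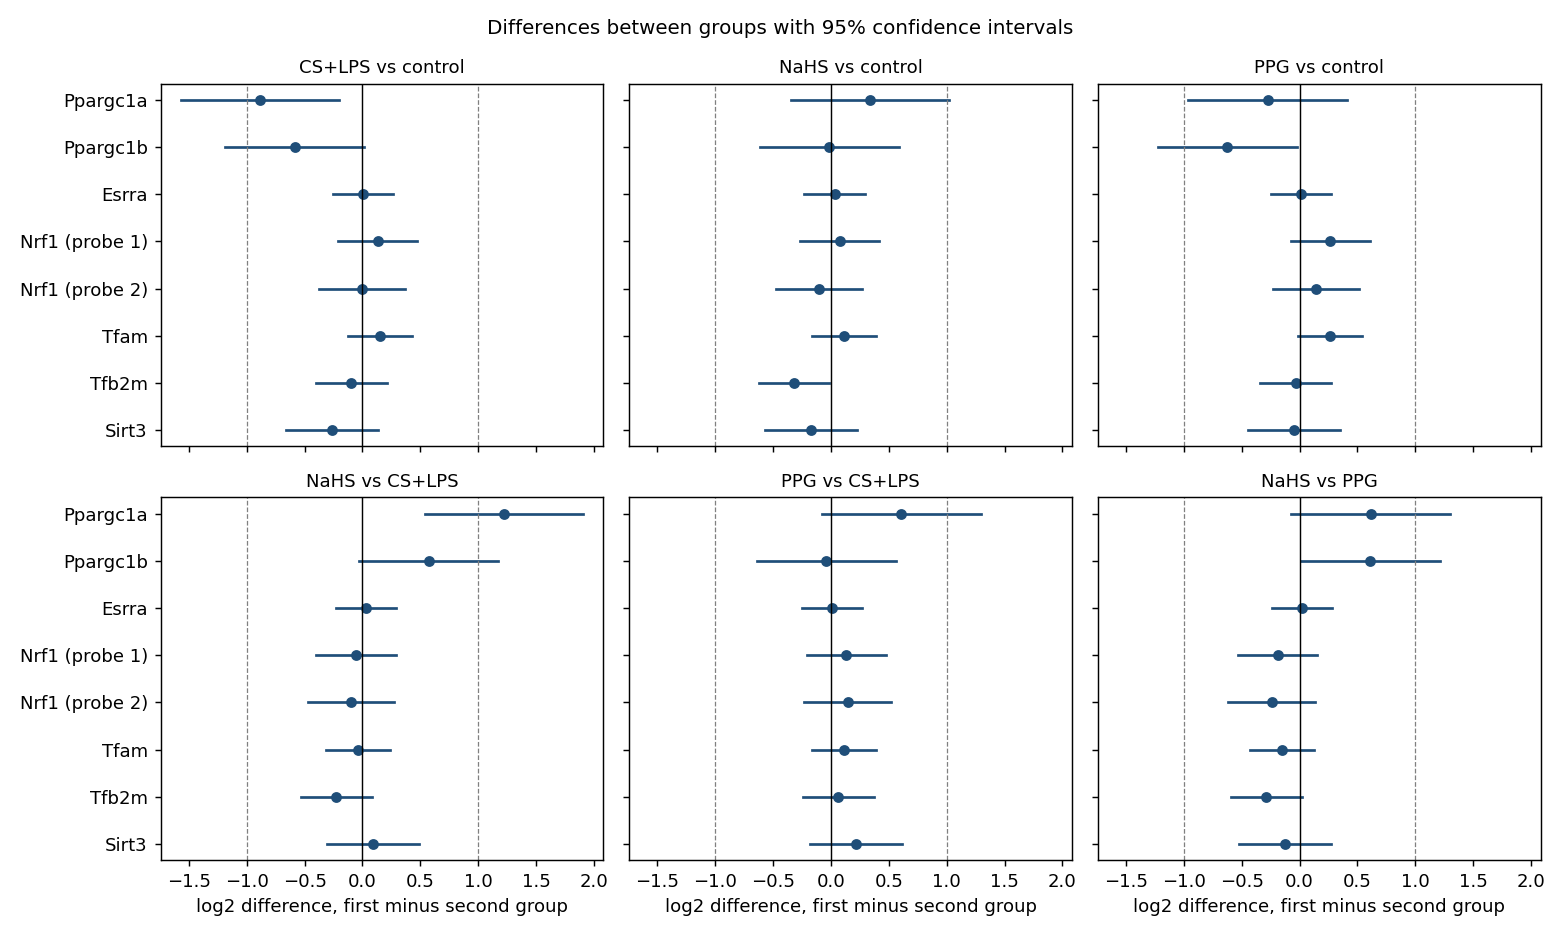
Log2 difference of each member probe in the 6 comparisons (horizontal axis, first named group minus second), with 95% confidence intervals from limma. Dashed lines mark a doubling and a halving. The Ppargc1a interval for NaHS over CS + LPS, from 0.54 to 1.91, lies wholly above 0, and all Esrra intervals lie between -0.26 and 0.29.

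The members differed in how far rats of 1 group varied. The pooled SD of log2 signal within groups was 0.42 for Ppargc1a and 0.36 for Ppargc1b, above the median of 0.26 over all probes. It was 0.10 for Esrra, 0.12 for Tfam, 0.14 for Tfb2m, 0.17 and 0.20 for the Nrf1 probes and 0.22 for Sirt3. Of all probes, 79.2% had a smaller SD than Ppargc1a and 3.47% a smaller one than Esrra. The error of a difference was accordingly wider for Ppargc1a (SE 0.31) than for Esrra (SE 0.12).

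The genes whose pattern was most like that of Ppargc1a were Fgf2, a growth factor of vessels and fibroblasts (r = 0.964), Prdm4, a zinc finger protein (r = 0.941), Dnaaf5, needed to assemble dynein arms of cilia (r = 0.936), Pam, an enzyme that amidates peptides (r = 0.932), and Csnk1e, a kinase of the circadian clock (r = 0.93). They came from 10237 genes well above background on all 12 arrays, and without control rat 3 their r was 0.933 to 0.962. Group means of log2 signal for Fgf2 were 6.99 in control, 6.33 in CS + LPS, 7.15 with NaHS and 6.77 with PPG, the order seen for Ppargc1a. Among genes of the pathway lists, Nrip1, a corepressor that opposes PGC-1alpha, ranked 20 (r = 0.897) and Ppard, a receptor that PGC-1alpha coactivates, ranked 88 (r = 0.818). Ppargc1b ranked 95. Tfam (r = -0.438), Tfb2m (-0.164), Nrf1 (-0.166), Esrra (0.214) and Sirt3 (0.21) were all far down this order.

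Partner receptors and factors of the coactivators were detected for 15 of 19 listed genes. In CS + LPS over control 1 was called higher and 1 lower, against 2.1% of all probes called. Pparg, the receptor that directs fat cell formation and is active in lung macrophages, rose (mean log2 signal 12.46 against 11.75, 1.63-fold, adjusted p = 0.049), and Foxo3, a stress-responsive factor, fell (7.43 against 8.42, log2 difference -0.99, adjusted p = 0.0365). Without control rat 3 the limma adjusted p was 0.0632 for Pparg and 0.0651 for Foxo3, so neither was called. Pparg also rose in PPG over control (1.91-fold, adjusted p = 0.0199), where 5.2% of all probes were called. In NaHS over CS + LPS 0 of 15 were called, against 0.739% of all probes. The median log2 difference was 0.10 against 0.03 over all probes. Ppard came nearest, at 7.69 to 7.99 with NaHS and 6.06 to 6.88 in CS + LPS (2.62-fold, adjusted p = 0.0633), and it met the study's rule. The slide block made its difference 1.20 rather than 1.39 (adjusted p = 0.131). It passed with another background correction, normexp (1.04, adjusted p = 0.033), in the fit of only these 2 groups (adjusted p = 0.0407), without control rat 3 (0.0427) and without PPG rat 2 (0.0264). It did not pass with the replicate block (adjusted p = 0.116), and over the fits without 1 rat its adjusted p reached 0.265. Yy1 (0.56, adjusted p = 0.27), Creb1 (0.29, adjusted p = 0.547) and Ppara (0.80, adjusted p = 0.614) had positive differences that did not pass.

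Enzymes and factors that act on PGC-1alpha were detected for 20 of 23 listed genes, and 0 were called in any comparison. That count is near the background of 0% to 5.2% over all probes. Nrip1 had a log2 signal of 10.16 to 10.55 with NaHS and 9.36 to 9.58 in CS + LPS, without overlap (log2 difference 0.91, adjusted p = 0.191). The slide block, which sets CS + LPS against control rat 3, made this 1.80 (adjusted p = 0.00865). Without that rat and with no block it was 0.91 (adjusted p = 0.0451), and in the fit of only these 2 groups the adjusted p was 0.0407. With the replicate block the adjusted p was 0.254, and over the fits without 1 rat it reached 0.518. Stk11, the kinase that activates AMPK, differed by 0.77 (adjusted p = 0.481), whereas the AMPK subunits Prkaa1 (-0.17) and Prkag2 (-0.15) had small negative differences. The list's median in NaHS over CS + LPS was 0.01.

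Genes that copy and read mitochondrial DNA were all detected (18 of 18), and 0 were called in any comparison, again near the background of 0% to 5.2%. Their median log2 difference was -0.15 in CS + LPS over control against -0.06 over all probes, and -0.07 in NaHS over CS + LPS against 0.03. In the latter comparison Top1mt, the mitochondrial topoisomerase, differed by -0.18 (adjusted p = 0.699), Mterf1, a transcription terminator, by -0.23 (adjusted p = 0.777), Dguok, which salvages nucleotides for mitochondrial DNA, by -0.17 (adjusted p = 0.789) and Lonp1, a mitochondrial protease, by 0.19 (adjusted p = 0.792). Of this list 7 of 18 differences were above 0 with NaHS, against 55.8% of all probes.

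Fuel-use targets of PGC-1alpha were detected for 22 of 24 listed genes, and 1 was called, in PPG over control, against 5.2% of all probes. The only call was Pdk4, which keeps pyruvate out of mitochondria and is a classical PGC-1alpha target. It was read well above background on 10 of the 12 arrays. It fell in PPG over control (mean 5.15 against 7.13, log2 difference -1.98, adjusted p = 0.0328), and without control rat 3 or with the slide block the difference was -1.65 (adjusted p = 0.0592). Its difference was -1.63 in CS + LPS over control (adjusted p = 0.0665) and -1.21 in NaHS over control (adjusted p = 0.2). In NaHS over CS + LPS, where Ppargc1a was higher, Pdk4 differed by 0.42 (adjusted p = 0.903). The other genes of this list with the smallest p there were the fatty acid oxidation enzymes Etfdh (-0.29), Acadvl (-0.18) and Acads (-0.24) and the fatty acid carrier Cd36 (-0.30), and 0 of them passed. Of this list 9 of 22 differences were above 0 there, against 55.8% of all probes, and the median was -0.06 against 0.03. Among the other oxidation genes, Hadha (0.12), Acadl (0.08) and Cpt1a (0.04) had positive differences. Those of Cpt1b (-0.43), Acaa2 (-0.20), Cpt2 (-0.10), Hadhb (-0.06) and Acadm (-0.06) were negative, and 0 of these genes passed either.

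Antioxidant targets of the pathway, not all of them mitochondrial, were detected for 8 of 9 listed genes. In CS + LPS over control 2 of the 8 were called higher, against 2.1% of all probes called in either direction. Prdx5, a peroxiredoxin, rose 2.14-fold (15.28 against 14.18, adjusted p = 0.0265) and Gpx1, a glutathione peroxidase, rose 1.65-fold (16.29 against 15.57, adjusted p = 0.0401). The same 2 rose in PPG over control, 2.16-fold (adjusted p = 0.0215) and 1.66-fold (adjusted p = 0.0305), against 5.2% of all probes called. In NaHS over CS + LPS 0 were called, against 0.739% of all probes. Cat, a peroxisomal enzyme that breaks down hydrogen peroxide, lay at 10.30 to 10.54 with NaHS and 9.40 to 9.66 in CS + LPS without overlap (log2 difference 0.95, adjusted p = 0.239). The mitochondrial thioredoxin reductase Txnrd2 differed by -0.31 (adjusted p = 0.753) and Sod2 by 0.05 (adjusted p = 0.978).

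Genes of mitochondrial fusion, fission and removal were detected for 12 of 13 listed. Fis1, a fission factor of the outer membrane, was the only one called, in PPG over control (1.62-fold higher, adjusted p = 0.0354). With slide as a block its adjusted p was 0.0504. Of all probes 5.2% were called in PPG over control. In NaHS over CS + LPS the fusion protein Mfn1 differed by 0.42 (adjusted p = 0.759) and the fission enzyme Dnm1l by 0.22 (adjusted p = 0.882). The fits without 1 rat ended each of the calls named in these lists in at least 1 case, with adjusted p up to 0.0844 for Foxo3, 0.121 and 0.0722 for Pparg, 0.113 for Pdk4, 0.101 and 0.0761 for Prdx5, 0.131 and 0.101 for Gpx1, and 0.116 for Fis1. All of them were also lost with the replicate block, in the fit of only the 2 groups compared and in the methods' t-test, where adjusted p reached 0.349.

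**Figure D4:**
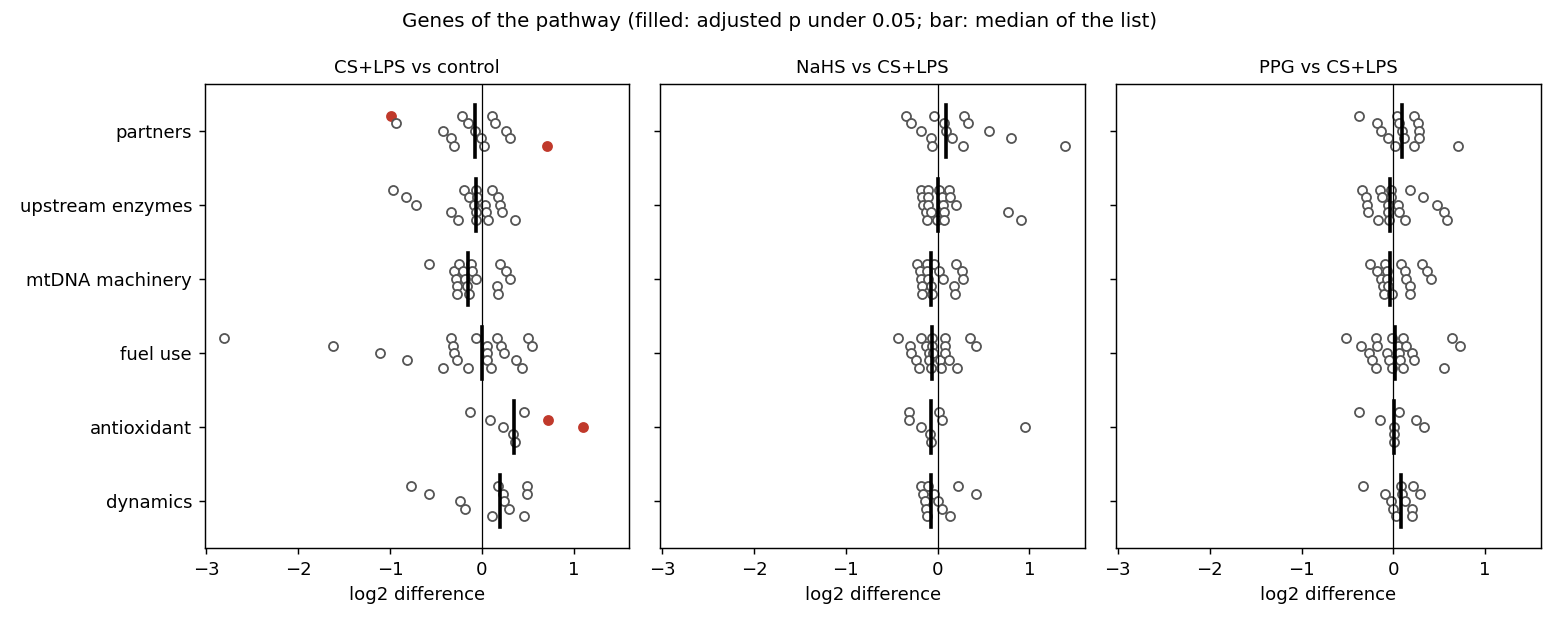
Log2 differences (horizontal axis) of the detected genes of 6 pathway lists in CS + LPS over control, NaHS over CS + LPS and PPG over CS + LPS. Each point is a gene, filled where the adjusted p was under 0.05, and the bar is the list's median. Filled points appear in the first panel only, at Foxo3, Pparg, Gpx1 and Prdx5.

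Markers of heart muscle, skeletal muscle, white fat and brown fat varied between the lungs. All 10 detected lung markers were well above background on all 12 arrays, with summed signals (the sum of processed signals after scaling) between 885600 and 1542000, and Vwf had no matched probe. Of the heart muscle markers 9 of 11 were detected, whereas Nppa and Ryr2 were well above background on 0 arrays. Their summed signal was 7348, 6522 and 98510 in the control rats, 56220, 14220 and 12750 in CS + LPS, 10770, 60090 and 22750 with NaHS, and 76970, 44220 and 70930 with PPG. White fat markers (7 detected of 9, Lep not) summed to 3851, 4156 and 20350 in the control rats. Their range was 4779 to 7400 for CS + LPS, 5788 to 7911 for NaHS and 10400 to 17600 for PPG. Brown fat markers (4 detected of 8, Elovl3 and Dio2 not, and Pparg shared with the partner list) summed to 7329, 6884 and 38750 in the control rats, with ranges of 10110 to 12720 for CS + LPS, 8890 to 12230 for NaHS and 13780 to 14620 for PPG. Skeletal muscle markers (6 detected of 10, the myosins Myh1, Myh2 and Myh4 not) stayed between 979.5 and 2149.

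Control rat 3 was the highest of all rats for the heart, skeletal muscle, white fat and brown fat markers, and it was the highest control for every member probe except that of Tfam. These are values after scaling, and its array had the lowest 75th percentile of signal, 1229 against 2110 to 3261. Before scaling its Ppargc1a signal was 75.5, below 92.4 and 85.9 in control rats 1 and 2. The part of the scaling in its high values was not tested. Ucp1, the brown fat protein that makes heat and a fuel-use target of PGC-1alpha, was chosen after its values were seen. Its log2 signal reached 13.27 at most in control against a highest value of 5.12 in CS + LPS. In each of the 4 groups, the rat with the highest heart muscle sum also had the highest Ppargc1a and the highest Ppargc1b. Between groups the order was different, since NaHS rats 1 and 3, with heart muscle sums of 10770 and 22750, had Ppargc1a at 6.94 and 7.14, above CS + LPS rat 1, whose heart muscle sum was 56220, and above all PPG rats. White fat sums of the NaHS and CS + LPS rats overlapped. The part of these tissues in the Ppargc1a differences was not tested.

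**Figure D5:**
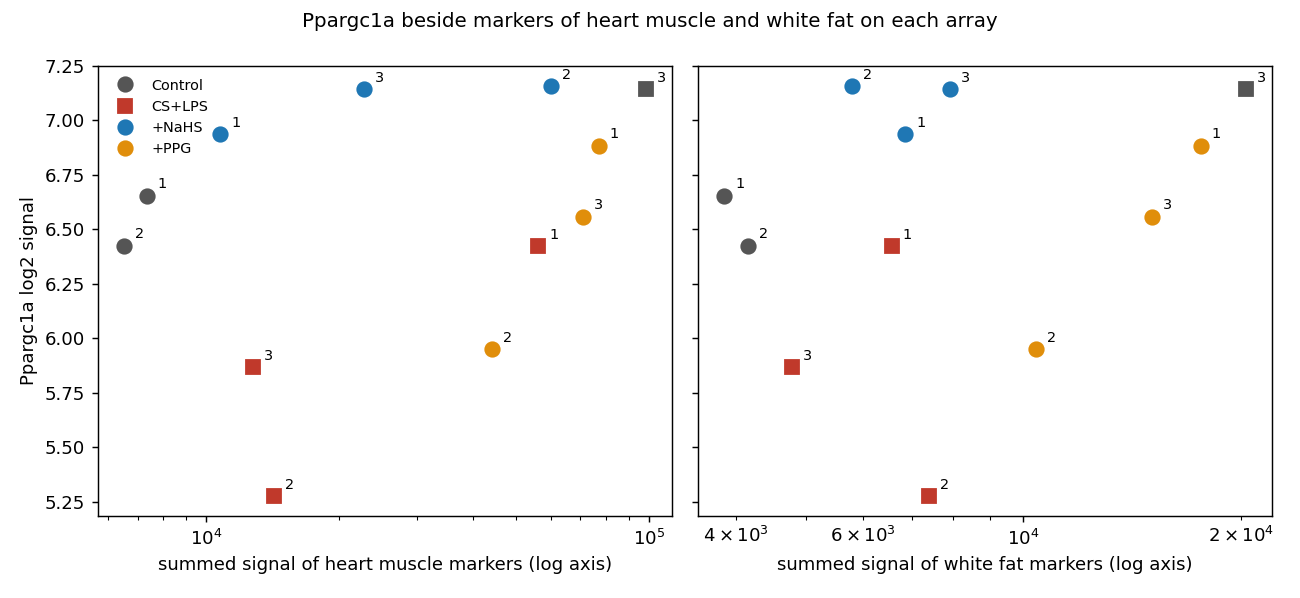
Ppargc1a log2 signal (vertical axis) against the summed signal of heart muscle markers and of white fat markers (horizontal log axes) for the 12 rats, coloured by group and numbered by replicate, with circles for slide 1 and squares for slide 2. The 3 NaHS rats lie at 6.94 to 7.16 over heart muscle sums from 10770 to 60090, and control rat 3 has the highest marker sums, 98510 and 20350.

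Immune cell markers were read in the same way. Neutrophil markers (7 detected of 8) summed to 8118 to 18960 in the control rats. The range was 16180 to 32330 for CS + LPS and 16550 to 33850 for NaHS, both overlapping control, and 25700 to 35760 for PPG. Macrophage markers (4 detected of 7, Marco not) summed to 4720 to 8708 in the control rats. The range was 13660 to 19600 for CS + LPS, 14240 to 17820 for NaHS and 13340 to 16780 for PPG. The macrophage sums of NaHS and CS + LPS rats overlapped, and those of all exposed groups lay above control. Cd68, the brightest probe, weighed most in these sums (mean log2 signal 12.31 in control and 13.68 in CS + LPS). Cd163 went the other way, with means of 8.99 in control, 7.57 in CS + LPS, 7.79 with NaHS and 8.40 with PPG. In each exposed group 3 of the 4 markers had a mean above control. The part of immune cells in the rise of Pparg, Prdx5 and Gpx1 was not tested.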

How the data were processed

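Lung RNA of 12 rats was hybridised to single-colour Agilent rat arrays. The authors deposited the scanner output of each array, made by Feature Extraction 10.7.3.1. Its processed signal is an intensity, linear and with background removed, and 3 of the files hold it rounded to 3 significant digits. The authors also deposited 5 lists of probes with fold changes, p-values and normalized log2 signals. Fold changes and p-values were not used, and the log2 signals, whose normalization is not given in the sources used here, served only as an alternative for Ppargc1a, the 1 member in these lists. The array headers name build rn4. In the list used, 12 columns of quality flags were left out.

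Each array was scaled on the log2 scale to the 75th percentile of its rat probes, spots marked as outliers were dropped, spots of a probe were averaged, and a probe was kept where all 3 arrays of some group read it well above background. RefSeq accessions named 17514 probes. Comparisons used limma 3.58.1 in R 4.3.3 with the data.table package (version 1.17.8), with 1 fit of 4 groups, and the fit was tested on simulated data. Between 66% and 75.5% of probes were well above background on an array. Precision is limited by the number of arrays, and p-values measure the spread between these rats. Alternatives were quantile normalization, another percentile, normexp background correction of the median signal with an offset of 50 (the files hold no mean signal), outlier spots kept, other detection filters, slide as a block or within slides, a replicate block, the methods' t-test, a fit of only the groups compared, the mean of a gene's probes, each rat left out, and, added after seeing the data, the authors' log2 signals and the same alternatives for list genes.

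The members and the lists were chosen with earlier results of these data known. All members are named. Of each list the genes with the smallest p in NaHS over CS + LPS, up to 4, and any that passed an adjusted p are named. The 5 genes most like Ppargc1a are those with the highest r over the 12 arrays.

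Replicate numbers did not pair the rats. Deviations from group means correlated at -0.308 to 0.139 for arrays of the same number and at -0.194 to 0.218 for arrays of different numbers.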

Additional observations from a re-analysis of the deposited data

How the results depend on the processing

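The directions of Ppargc1a held under every alternative run in all 6 comparisons, and quantile normalization changed no call of a member probe. The authors' log2 signals gave 1.01 for Ppargc1a in NaHS over CS + LPS and -0.59 in CS + LPS over control. No test was run on them. Quantile normalization ended list calls of Gpx1 (adjusted p = 0.0674), Pparg (0.0618) and Foxo3 (0.0549) in CS + LPS over control and of Gpx1 (0.081) and Fis1 (0.062) in PPG over control. With slide as a block the Ppargc1a difference became 1.83 in NaHS over CS + LPS and -1.29 in CS + LPS over control, both past the threshold. In that fit control rat 3 was the only link between the slides. Of the 8 member probes, 3 were called with that block in CS + LPS over control, against 8721 of all 21239 probes. In NaHS over CS + LPS 2 were called, against 4852, and in PPG over CS + LPS 1, against 4746. Without the block 0 were called in each. The study's rule was met with the block by 2, 2 and 1 member probes, against 4866, 4332 and 4284 of all probes. For the member probes these counts are near or below the shares over all probes. Within slide 2 control was control rat 3 alone, and CS + LPS differed from it by -1.29 for Ppargc1a and -1.23 for Ppargc1b. With normexp, 0 met the rule in NaHS over CS + LPS, against 111 of all probes. Leaving out 1 rat gave 0 to 1 that met the rule in NaHS over CS + LPS and in CS + LPS over control. Over all probes the number called ranged over the alternatives from 1 to 8721 in CS + LPS over control (447 as reported), 0 to 117 in NaHS over control (26), 0 to 1715 in PPG over control (1105), 1 to 4852 in NaHS over CS + LPS (157), 1 to 4746 in PPG over CS + LPS (124) and 0 to 1 in NaHS over PPG (0), with the 3 highest of these under the slide block. The number that met the study's rule ranged from 445 to 4866 (978), 229 to 1205 (549), 377 to 1589 (914), 111 to 4332 (413), 144 to 4284 (454) and 59 to 270 (106) in the same order.

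The replicate block, with numbers that did not pair the rats, gave 1.22 for Ppargc1a in NaHS over CS + LPS (adjusted p = 0.115), changed no member's call, and lowered the number of probes called in that comparison from 157 to 63.

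Signs turned for log2 differences near 0. Esrra in CS + LPS over control was -0.0138 with the percentile taken over probes read well on every array, -0.0144 with quantile normalization, -0.0399 with normexp, and -0.14 with slide as a block and within slide 2. Esrra in PPG over CS + LPS was -0.001 with that percentile and -0.0081 with quantile normalization, and in PPG over control -0.0148 and -0.0225. With slide as a block or within a slide, Nrf1 was -0.0982 in CS + LPS over control, Ppargc1b 0.31 and Sirt3 0.0131 in NaHS over control, and Sirt3 0.14 and Tfb2m 0.0119 in PPG over control. With the block, Nrf1 was 0.29 in NaHS over CS + LPS, Ppargc1b 0.93 and Tfam -0.0353 in PPG over CS + LPS. With normexp, Nrf1 was 0.0106 in NaHS over CS + LPS and Ppargc1b 0.0944 in PPG over CS + LPS. Ppargc1b in NaHS over control was 0.0171 with quantile normalization, and Nrf1 there was -0.0134 with the mean of its probes.

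Leaving out 1 rat at a time turned further signs. Esrra ranged from -0.0638 to 0.0727 in CS + LPS over control, -0.036 to 0.10 in NaHS over control, -0.0542 to 0.0822 in PPG over control, -0.0282 to 0.07 in NaHS over CS + LPS, -0.0383 to 0.0493 in PPG over CS + LPS and -0.0378 to 0.066 in NaHS over PPG. In NaHS over control Nrf1 ranged from -0.0222 to 0.19, Ppargc1b from -0.21 to 0.31 and Sirt3 from -0.28 to 0.0131. In NaHS over CS + LPS Nrf1 ranged from -0.15 to 0.048, Sirt3 from -0.0499 to 0.20 and Tfam from -0.0984 to 0.0345. In PPG over CS + LPS Ppargc1b ranged from -0.23 to 0.11 and Tfb2m from -0.047 to 0.13. In PPG over control Sirt3 ranged from -0.15 to 0.14 and Tfb2m from -0.14 to 0.0325, and in CS + LPS over control Tfb2m ranged from -0.16 to 0.013. For Ppargc1a the ranges were 0.93 to 1.51 in NaHS over CS + LPS and -1.17 to -0.60 in CS + LPS over control, with adjusted p of 0.0647 to 0.38 and 0.0808 to 0.287. The cause of these changes was not tested.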
